A study of Mus musculus with 56 samples.

Results

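The 10 heat shock genes of the mouse heart described here are the 70 kDa chaperones Hspa8, Hspa1a and Hspa1b, the large HSP110-type chaperones Hsph1 and Hspa4, the HSP90 gene Hsp90aa1 and its co-chaperone Chordc1, the HSP40 gene Dnajb1, the small heat shock protein gene Hspb1, and Hsf1, which encodes the transcription factor heat shock factor 1. They were chosen by symbol, and they are 10 of the 22852 listed genes with an exon length. All 10 passed the filter of a mean of at least 1 TPM (reads per base of exon, scaled so that every library has an equal sum), as did 13863 genes in all.

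Hearts came from females of the inbred mouse strain C57BL/6J, which were 9 weeks old and lived in a cycle of 12 h light and 12 h dark. After free feeding, access to food was limited for 7 days to the light phase under daytime-restricted feeding (DRF), or to the dark phase, when mice normally eat, under nighttime-restricted feeding (NRF, the control). PolyA RNA of the whole heart was sequenced every 4 h at 7 zeitgeber times (ZT, counted in hours from lights on, ZT0 through ZT24), with 4 biological replicates in each of the 14 groups and 56 libraries in all. The question was how inverted feeding changed daily rhythms in this tissue. None of the mice was mutant or drugged. ZT0 and ZT24 are the same clock time in separate mice.

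Chaperones bind unfolded or partly folded proteins and help them to fold, to assemble or to be degraded. HSF1 is held inactive by chaperones, and when unfolded proteins draw these away it forms trimers, enters the nucleus and binds heat shock elements, which are arrays of the block nGAAn in alternating orientation, upstream of chaperone genes. The daily rise in body temperature is known to drive a rhythm of HSF1 targets in mouse liver, and in the heart, chaperones also maintain the contractile proteins. HSP70 proteins need an HSP40 partner, which delivers the client and stimulates ATP hydrolysis, and an HSP110 partner, which exchanges the nucleotide. HSP90 then completes the folding of kinases and steroid receptors, and small heat shock proteins hold unfolded clients without ATP.

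Libraries held 2.95e+07 to 5.34e+07 recovered reads, with a median of 3.77e+07. DRF libraries averaged 3.85e+07 ± 5.79e+06 reads and NRF libraries 3.87e+07 ± 4.68e+06 (SD, n = 28), a difference within the spread. The share of reads from mitochondrial transcripts was 21.6 ± 1.46% (DRF) and 20.3 ± 1.56% (NRF). There were 2 libraries that correlated negatively with their own groups, and they are said here to go against their labels. Over 1521 other genes whose rhythm differed between regimens at an adjusted p under 0.001, the library labelled DRF ZT4 replicate 1 correlated with the mean of the rest of its group at −0.31 and with that of NRF ZT8 at 0.68. The library labelled NRF ZT8 replicate 1 correlated at −0.18 with its own group and at 0.65 with DRF ZT4. The other 54 libraries correlated with their own groups at 0.275 to 0.887, 46 of them closest to their own group and 8 closer to another. Over 16 clock genes, DRF ZT4 replicate 1 was again closest to NRF ZT8 (0.97, own group 0.27). NRF ZT8 replicate 1 was there closest to NRF ZT4 (0.70, own group −0.26), not to DRF ZT4. Among the other 54, DRF ZT4 replicate 4 was closer to NRF ZT4 (0.86, own group 0.43) over the clock genes. DRF ZT16 replicate 1 was closer to NRF ZT16 (0.94, own group 0.56). Labels were kept. Rhythm and amplitude counts, the mean level and calls at ZT4, ZT8 and ZT12 are also given without the 2 libraries that went against their labels. Peak times, counts in other gene lists and profile correlations are given with both kept.

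**Figure D1:**
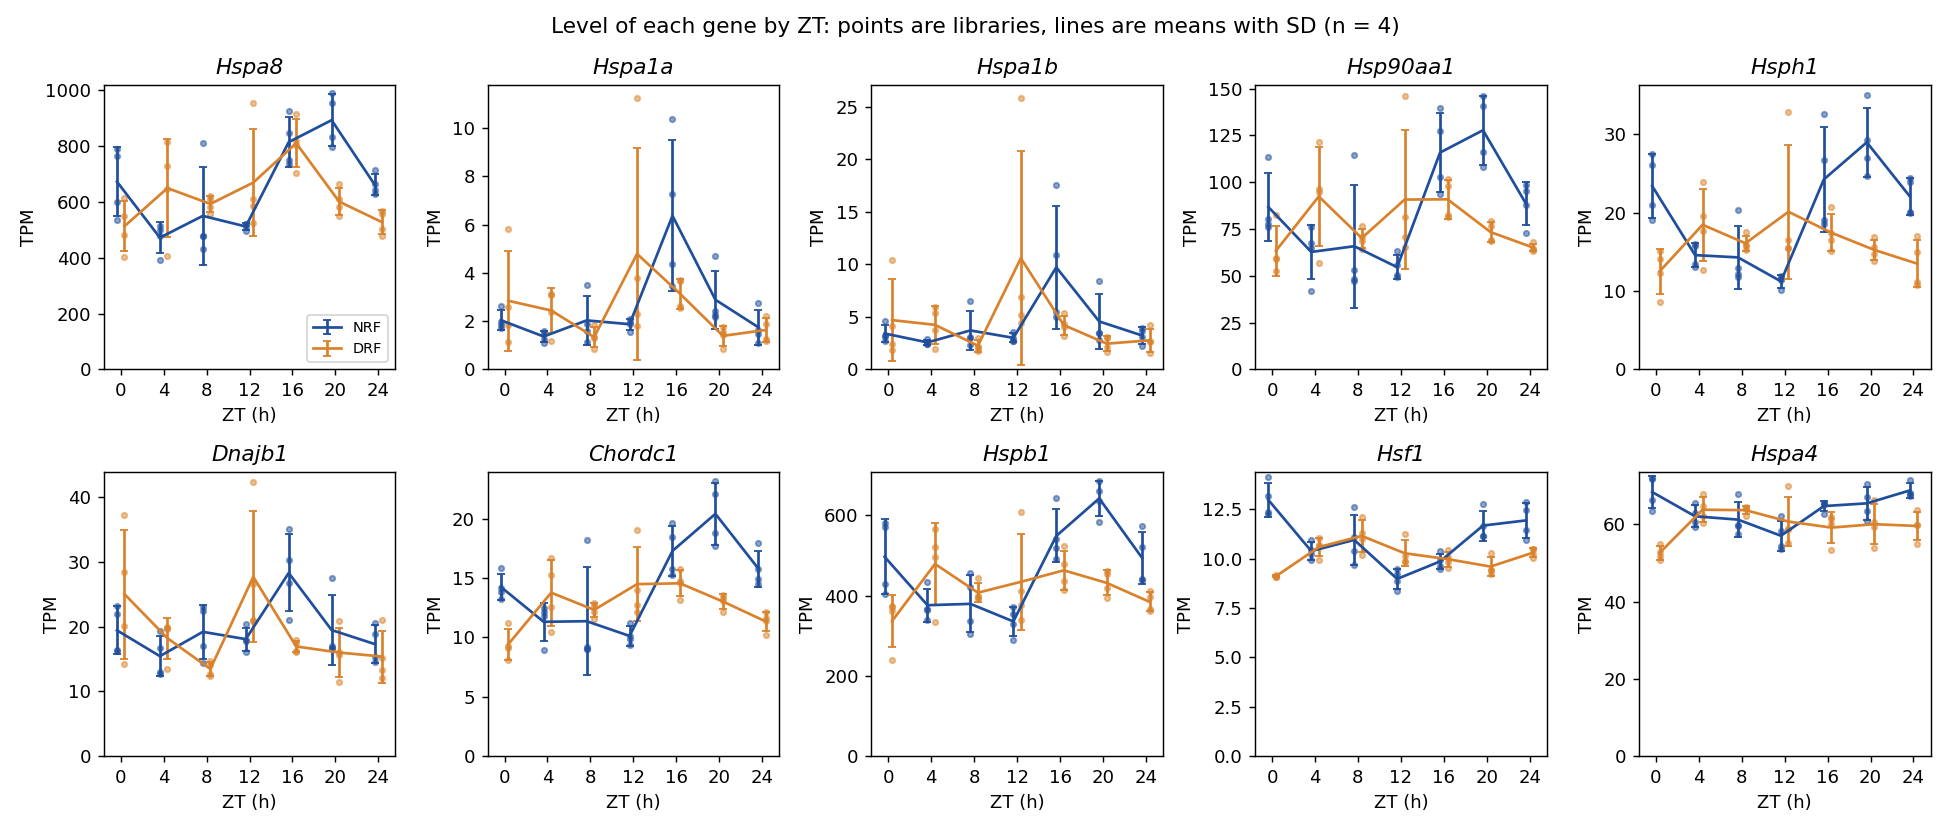
Level of the 10 genes (TPM, linear axis) against zeitgeber time (h) in each library, with DRF and NRF in separate colours, lines through the group means and error bars of 1 SD (n = 4). Under NRF, Hsph1 ran from 11.2 TPM at ZT12 to 29.0 TPM at ZT20, and under DRF its group means stayed between 12.5 and 20.1 TPM.

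The sequences just before the transcription start were examined because stress-inducible chaperone genes are textbook targets of HSF1. RefSeq promoters (build GRCm38.p6) matched 7 of the 10 genes, and Hspa8, Hsp90aa1 and Hsf1 had no entry. The 250 bases before each RefSeq start were searched for 2 facing blocks, GAANNTTC, and for 2 blocks back to back, TTCNNGAA, each of which reads the same on both strands. Either motif was found before the RefSeq start of 4 of the 7 genes and in 12.8% of all 32851 promoters of that length. The 120 bases before the RefSeq start of these 4 genes follow, 5′ to 3′ on the coding strand, with the matches in capitals:
Hspa1a, chr17:34972157-34972276, minus strand: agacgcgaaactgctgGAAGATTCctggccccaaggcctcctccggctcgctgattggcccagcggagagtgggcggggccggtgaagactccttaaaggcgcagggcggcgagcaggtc
Hspa1b, chr17:34959239-34959358, minus strand: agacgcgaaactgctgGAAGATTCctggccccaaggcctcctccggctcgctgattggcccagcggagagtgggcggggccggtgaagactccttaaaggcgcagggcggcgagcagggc
Hsph1, chr5:149636337-149636456, minus strand: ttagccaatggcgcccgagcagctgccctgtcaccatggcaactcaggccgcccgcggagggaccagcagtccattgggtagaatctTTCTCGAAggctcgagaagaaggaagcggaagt
Hspb1, chr5:135887799-135887918, plus strand: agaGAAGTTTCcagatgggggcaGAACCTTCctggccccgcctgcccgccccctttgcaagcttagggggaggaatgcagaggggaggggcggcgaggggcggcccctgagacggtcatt
The match in Hspa1a and Hspa1b began 104 bases before the start, and the stretches shown for this pair differ at 1 base. RefSeq lists 2 starts for Hsph1, of which the one farther upstream is shown, and the match lies before both but inside the GENCODE gene span given below. Hspb1 held 2 matches, and 1.46% of all promoters held 2 or more. The windows of Dnajb1 (at both of its listed starts), Chordc1 and Hspa4 held neither motif, which says only that these letters are absent there.

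Under NRF all 10 genes were rhythmic, and under DRF 3 were. Rhythm was tested per regimen with a 24 h cosine and sine fit on log2(TPM + 1) in limma, at a Benjamini-Hochberg adjusted p under 0.05 over all 13863 genes. By this test, 37.3% of all genes had a rhythm under NRF and 32.5% had one under DRF. Hspa8, Chordc1 and Hsf1 passed under DRF. The call of Hspa8 was lost in 22 of 47 alternative fits, among them each of the 4 replicate numbers left out in turn (adjusted p up to 0.341 over all alternatives). The rhythm itself differed between regimens, by an interaction test of both terms, for 7 of the 10 genes (Hspa8, Hsp90aa1, Hsph1, Chordc1, Hspb1, Hsf1 and Hspa4), against 27.7% of all genes. Without both libraries that went against their labels the counts were 10 under NRF, 2 under DRF (Hspa8 had an adjusted p of 0.0612) and 7 for the difference, beside 43.0%, 30.02% and 30.6% of all genes. The 3 genes without a called difference were Hspa1a, Hspa1b and Dnajb1. In whole tissue, fewer cells of a type and less RNA per cell cannot be told apart.

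The fitted amplitude, which is the distance from the mean to the peak on the log2(TPM + 1) scale, was lower under DRF for each of the 10 genes, whereas 52.1% of all genes had a lower amplitude under DRF. The median amplitude of the 10 genes was 0.45 under NRF and 0.18 under DRF, and over all genes it was 0.10 under both. For 6 genes the 95% interval of the difference, not adjusted for the number of genes, lay below 0, against 7.07% of all genes. These were Hsp90aa1 (−0.43, −0.66 to −0.19), Hsph1 (−0.38, −0.58 to −0.17), Hspb1 (−0.32, −0.49 to −0.15), Chordc1 (−0.27, −0.43 to −0.11), Hspa8 (−0.23, −0.41 to −0.05) and Hsf1 (−0.08, −0.16 to −0.01). The intervals of Hspa1a (−0.71 to 0.02), Dnajb1 (−0.46 to 0.08), Hspa1b (−0.61 to 0.24) and Hspa4 (−0.11 to 0.04) reached past 0, so for these genes a loss of amplitude was not shown. Without both libraries that went against their labels, the interval also lay below 0 for Hspa1a (−0.77 to −0.05), which made 7 genes, against 9.45% of all genes.

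**Figure D2:**
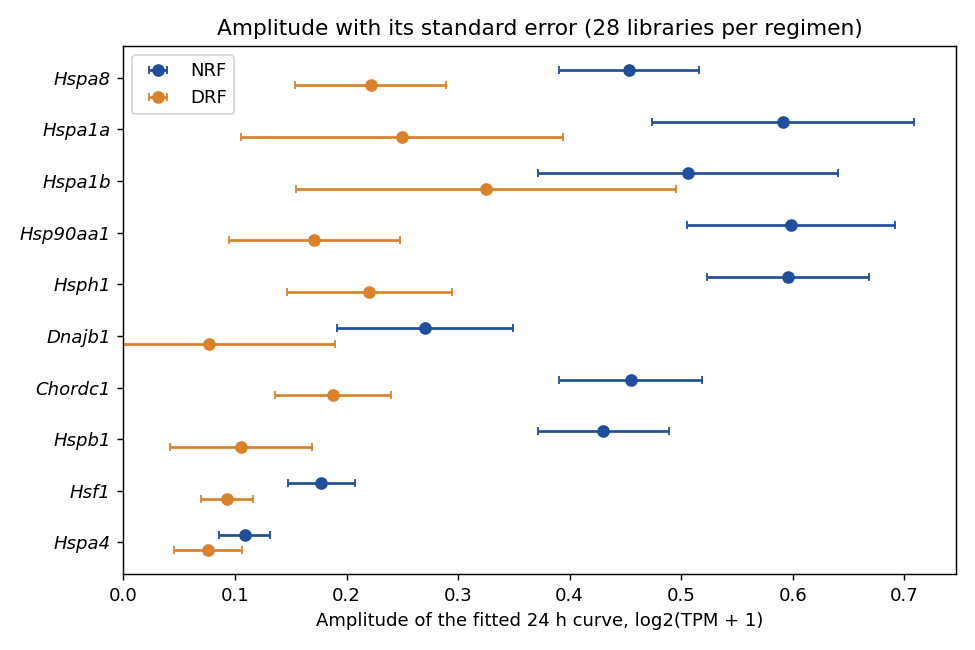
Fitted 24 h amplitude on the log2(TPM + 1) scale under NRF and under DRF for each of the 10 genes, with error bars of 1 SE from fits over 28 libraries per regimen, the DRF bar of Dnajb1 being cut off at 0. Every gene sits lower under DRF, from 0.60 to 0.17 for Hsp90aa1 and from 0.11 to 0.08 for Hspa4.

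Hsf1 (ENSMUSG00000022556, GRCm38 chr15:76477422-76501913, plus strand), the regulator, had a small rhythm in mRNA. At ZT0 its level was 14.1, 12.3, 13.2 and 12.3 TPM under NRF and 9.07, 9.17, 9.06 and 9.14 TPM under DRF. The groups did not overlap, and the 4 DRF libraries lay close together. Hsf1 fell by 0.47 on the log2 scale at ZT0 (SE 0.06, adjusted p = 7.08e-07). Its amplitude was 0.18 ± 0.03 (SE) under NRF and 0.09 ± 0.02 under DRF, and both rhythms passed the test (adjusted p = 0.000164 and 0.00996), but the DRF call was lost with the deposited values and without replicate 1, 3 or 4 or ZT8 (adjusted p up to 0.15). The fitted peak lay at ZT23.9 ± 0.732 under NRF and at ZT8.14 ± 0.91 under DRF, 8.27 ± 1.17 h apart, and the difference in rhythm had an adjusted p of 6.45e-06.

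Hspa8 (ENSMUSG00000015656, chr9:40800984-40810087, plus strand) encodes HSC70, the constitutive HSP70, and was the highest of the 10 at a mean of 638 TPM. Under NRF its group means ran from 472 TPM at ZT4 to 893 TPM at ZT20. At ZT20 the NRF libraries held 988, 953, 832 and 798 TPM, and the DRF libraries 551, 580, 610 and 663 TPM. Every NRF library stood above every DRF library there, with a log2 difference of −0.57 (SE 0.16, adjusted p = 0.0142). The call was lost without DRF ZT20 replicate 1, without NRF ZT20 replicate 1 and with the deposited values (adjusted p up to 0.117). At ZT16 the group means were close, 814 ± 89.3 TPM under NRF and 810 ± 86.0 TPM under DRF (SD, n = 4), and the DRF mean had its highest value there. Its NRF amplitude was 0.45 ± 0.06 (adjusted p = 1.19e-05) and its DRF amplitude 0.22 ± 0.07 (0.0369), and the peaks lay at ZT18.9 ± 0.475 and ZT14.0 ± 1.25. The difference in rhythm had an adjusted p of 0.00105. The exons of Hspa8 share about 2% of their bases with each of 3 Snord14 small nucleolar RNA genes, so a small part of its reads could belong to either.

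Hspa1a (ENSMUSG00000091971, chr17:34969190-34972156, minus strand) and Hspa1b (ENSMUSG00000090877, chr17:34956436-34959238, minus strand) encode the stress-inducible HSP70. They were the lowest of the 10, at means of 2.56 and 4.40 TPM and 132 and 212 reads per library. Their transcripts are near copies, and 38.1% of the 150-base windows of Hspa1a also occur in Hspa1b, so the split of reads between them is uncertain. Hspa1a also overlaps Gm20481, on the opposite strand, over 19% of its exon bases, and the strand setting of the counting is not given in the sources used here. Both genes peaked early in the dark phase under NRF, at ZT16.6 ± 0.689 and ZT16.7 ± 0.92.

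At ZT16 under NRF, Hspa1a held 7.28, 10.4, 3.45 and 4.37 TPM and Hspa1b 10.9, 17.6, 5.02 and 5.44 TPM. The same libraries were high and low in both genes, with replicate 2 the highest and replicate 3 the lowest. Under DRF at that time the libraries held 2.55, 3.65, 3.70 and 2.65 TPM of Hspa1a and 4.01, 3.20, 5.37 and 4.34 TPM of Hspa1b. The groups overlapped for both genes, and the log2 differences of −0.75 (SE 0.30) and −0.90 (SE 0.36) did not pass the test (adjusted p = 0.12 and 0.117). At ZT12 the order was the other way. Hspa1b held 5.23, 6.90, 4.43 and 25.8 TPM under DRF and 2.72, 2.73, 3.00 and 3.62 TPM under NRF, with no overlap and a log2 difference of 1.20 (SE 0.36, adjusted p = 0.0322). Without the DRF library at 25.8 TPM this difference was 0.69, with an adjusted p of 0.204. The amplitudes were 0.59 ± 0.12 and 0.51 ± 0.13 under NRF and 0.25 ± 0.14 and 0.33 ± 0.17 under DRF. NRF rhythm passed (adjusted p = 0.000956 and 0.0124), DRF rhythm did not (0.349 and 0.287), and the difference in rhythm did not (0.196 and 0.298). The NRF call was lost for Hspa1a without ZT16 (adjusted p = 0.0943), and for Hspa1b without replicate 2, ZT4 or ZT16 (up to 0.398).

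Hsph1 (ENSMUSG00000029657, chr5:149614287-149636376, minus strand) encodes HSP105, a nucleotide exchange factor of HSP70, and its rhythm differed between regimens with an adjusted p of 1.23e-06. Its motif, TTCTCGAA, is in the stretch above. At ZT20 its level was 35.0, 29.3, 26.9 and 24.7 TPM under NRF and 15.6, 13.8, 14.7 and 16.8 TPM under DRF. At ZT0 it was 26.04, 20.98, 27.5 and 19.04 TPM under NRF and 8.58, 15.1, 14.1 and 12.3 TPM under DRF. NRF was the higher at both times without overlap, by a log2 difference of −0.88 (SE 0.19, adjusted p = 0.00134) at ZT20 and −0.86 (SE 0.19, adjusted p = 0.00154) at ZT0. At ZT12 the order turned, with 11.9, 10.1, 11.3 and 11.6 TPM under NRF and 15.5, 16.5, 15.5 and 32.9 TPM under DRF. These groups did not overlap either (log2 difference 0.72, SE 0.19, adjusted p = 0.0137). The fitted peak-to-trough ratio was 2.28 under NRF and 1.36 under DRF, and the peaks lay at ZT20.4 ± 0.45 and ZT11.4 ± 1.44, so the shift was 9.09 ± 1.51 h. DRF rhythm of Hsph1 had an adjusted p of 0.0596 and was called in 8 of 47 alternative fits (down to 0.0164), among them median-of-ratios rescaling, limma voom and the replicate block.

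Hspa4 (ENSMUSG00000020361, chr11:53259814-53300457, minus strand), which encodes the related exchange factor APG2, was far flatter, with amplitudes of 0.11 ± 0.02 under NRF and 0.08 ± 0.03 under DRF. At ZT0 it held 71.6, 63.5, 72.0 and 66.1 TPM under NRF and 50.7, 54.9, 52.9 and 51.8 TPM under DRF. The groups stood apart, and the log2 difference was −0.37 (SE 0.06, adjusted p = 7e-05). Its other 13 group means stayed between 57.0 and 68.7 TPM. Its fitted peaks, ZT22.4 ± 0.864 and ZT8.78 ± 1.52, were 10.4 ± 1.75 h apart, and the difference in rhythm had an adjusted p of 0.000685.

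Hsp90aa1 (ENSMUSG00000021270, chr12:110690605-110702728, minus strand), the inducible cytosolic HSP90, had amplitudes of 0.60 ± 0.09 under NRF and 0.17 ± 0.08 under DRF. At ZT20 its level was 146, 141, 108 and 116 TPM under NRF and 69.3, 79.2, 68.6 and 76.5 TPM under DRF. The lowest NRF library stood above the highest DRF library, and the log2 difference was −0.78 (SE 0.21, adjusted p = 0.00969). The fitted peak-to-trough ratio was 2.29 under NRF and 1.27 under DRF, with peaks at ZT19.4 ± 0.542 and ZT12.5 ± 1.93. NRF rhythm had an adjusted p of 5.4e-05, DRF rhythm 0.188 and the difference 0.000283. At ZT8 the library labelled NRF ZT8 replicate 1 held 115 TPM against 47.0 to 53.0 TPM in the other 3. Without both doubted libraries the NRF amplitude of Hsp90aa1 was 0.70 ± 0.07, and the DRF amplitude was 0.16 ± 0.08.

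Chordc1 (ENSMUSG00000001774, chr9:18292125-18317442, plus strand) encodes morgana, a co-chaperone of HSP90. It held 23.1, 22.1, 17.7 and 18.8 TPM at ZT20 under NRF and 13.3, 12.2, 13.5 and 13.1 TPM under DRF. NRF libraries were the higher without overlap (log2 difference −0.60, SE 0.14, adjusted p = 0.00258). Its amplitude was 0.45 ± 0.06 under NRF and 0.19 ± 0.05 under DRF, and it was rhythmic under both (adjusted p = 1.39e-05 and 0.0192). The DRF call was lost without replicate 1 or 2 and without ZT0, ZT16 or ZT24 (adjusted p up to 0.175). Peaks lay at ZT19.7 ± 0.499 and ZT13.0 ± 1.17, 6.74 ± 1.27 h apart, and the difference in rhythm had an adjusted p of 1.73e-05. Across the 14 group means its level on the log2 scale correlated with Hsp90aa1 at 0.96, and across the 56 libraries within groups at 0.92, where both genes share each library's depth and RNA.

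Dnajb1 (ENSMUSG00000005483, chr8:83608193-83612653, plus strand) encodes the HSP40 partner of HSP70 and had the highest adjusted p of the 10 for NRF rhythm (0.0232, amplitude 0.27 ± 0.08). That call was lost in 8 of 47 alternative fits (adjusted p up to 0.605), namely without ZT4 or ZT16, without replicate 1, 2 or 3, and without NRF ZT16 replicate 1, 2 or 4. At ZT16 its level was 30.3, 35.1, 21.02 and 26.6 TPM under NRF and 16.2, 17.4, 17.9 and 16.1 TPM under DRF. The groups did not overlap (log2 difference −0.69, SE 0.21, adjusted p = 0.0403), but the call was lost in 10 of 15 alternative fits. Under DRF the amplitude was 0.08 ± 0.11 and no rhythm was called (adjusted p = 0.844). The DRF libraries held 14.3, 37.1, 28.4 and 20.1 TPM at ZT0 and 20.8, 26.5, 21.04 and 42.3 TPM at ZT12, and 12.4 to 14.6 TPM at ZT8. At ZT24, the clock time of ZT0 a day later, they held 12.03, 15.1, 13.3 and 21.1 TPM, and these libraries overlapped with those of ZT0. A test of any shape over the 7 ZTs called Dnajb1 under DRF (adjusted p = 0.0207) and called its profile different between regimens (0.0127). That test called 5 of the 10 genes under DRF (Hspa1b, Dnajb1, Chordc1, Hsf1 and Hspa4) and a difference for all 10, against 31.6% and 22.7% of all genes.

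Hspb1 (ENSMUSG00000004951, chr5:135887919-135889563, plus strand) encodes HSP25, the mouse counterpart of human HSP27, which binds actin and sarcomere proteins under stress. It held 686, 661, 636 and 584 TPM at ZT20 under NRF and 418, 460, 394 and 454 TPM under DRF. The groups stood well apart (log2 difference −0.57, SE 0.15, adjusted p = 0.00745). Its DRF amplitude was 24.5% of the NRF amplitude (0.43 ± 0.06 against 0.11 ± 0.06). DRF rhythm had an adjusted p of 0.384 and the difference in rhythm 0.000289. The 2 motif matches shown above lie in its promoter.

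Under NRF the fitted peaks of Dnajb1, Hspa1a and Hspa1b came first, at ZT16.2 to ZT16.7, and Hspa8, Hsp90aa1, Chordc1, Hspb1 and Hsph1 followed at ZT18.9 to ZT20.4. Hspa4 and Hsf1 came last, at ZT22.4 and ZT23.9. The widest gaps between neighbours, from Hspa1b to Hspa8 and from Hsph1 to Hspa4, were 2.19 and 1.99 combined SE, and the others were at most 1.32. These gaps were read off the ranked peaks and not tested, so the order of neighbours is not resolved. Under DRF, Hsf1 and Hspa4 had fitted peaks in the light phase, at ZT8.14 and ZT8.78, and the other 8 at ZT11.4 to ZT14.0, with no 2 neighbours more than 1.23 combined SE apart. These 8 genes had earlier fitted peaks under DRF than under NRF, by 2.38 h (Dnajb1, SE 6.12 h) to 9.09 h (Hsph1, SE 1.51 h). The peak of a gene with no called DRF rhythm is only a fitted value.

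**Figure D3:**
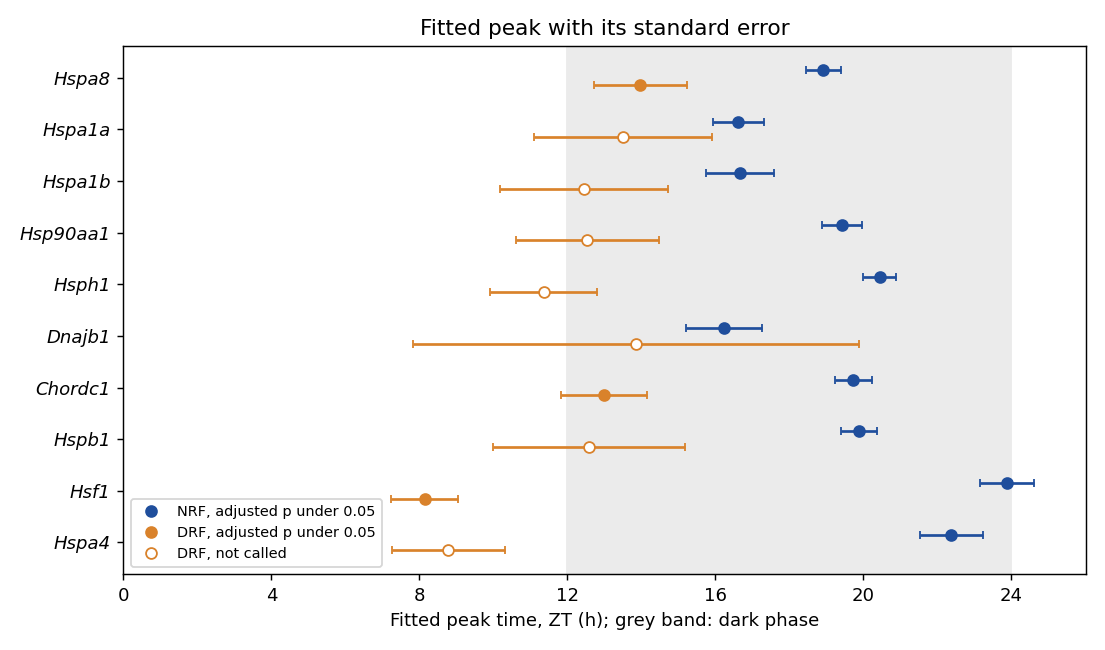
Fitted peak times (ZT, h) of the 10 genes under NRF and under DRF, with error bars of 1 SE, open symbols where no rhythm was called, and the dark phase shaded. NRF peaks lie between ZT16.2 and ZT23.9 and DRF peaks between ZT8.14 and ZT14.0.

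The calls at single times lay at ZT0, ZT12, ZT16, ZT20 and ZT24, with DRF higher at ZT12 and lower at the others. At ZT20, late in the dark phase, 6 genes were lower under DRF (Hspa8, Hsp90aa1, Hsph1, Chordc1, Hspb1 and Hsf1), as were 11.4% of all genes. At ZT0, 5 genes were lower (Hsph1, Chordc1, Hspb1, Hsf1 and Hspa4), against 8.29% of all genes, and at ZT24, 4 genes were (Hsph1, Chordc1, Hsf1 and Hspa4), against 4.46%. At ZT16 Dnajb1 alone was lower, against 6.28% of all genes. At ZT12, the end of the DRF meal and of the light phase, 4 genes were higher under DRF (Hspa1b, Hsp90aa1, Hsph1 and Chordc1), against 1.27% of all genes. This background depends on scaling, since 176 genes were higher as scaled here and 648 after median-of-ratios rescaling, when 6 of the 10 were called. The signed differences of all 10 genes were positive at ZT4 and ZT12 and negative at ZT20 and ZT24, with medians of 0.31, 0.50, −0.59 and −0.27 on the log2 scale, beside medians of −0.01, −0.06, −0.07 and −0.00 over all genes. In every called gene the DRF and NRF libraries did not overlap, which a call with 4 libraries per group makes likely. Groups also stood apart in some genes without a call, such as Hspa8 at ZT12 and ZT24. The share of such genes among all genes was not counted. At ZT0 the log2 differences of Chordc1 and Hspb1, not given above, were −0.55 (SE 0.14, adjusted p = 0.00582) and −0.56 (SE 0.15, adjusted p = 0.00929). Hspb1 was not called at ZT0 without DRF ZT0 replicate 1, NRF ZT0 replicate 1 or NRF ZT0 replicate 3 (adjusted p up to 0.0917). At ZT24 those of Hsph1, Chordc1, Hsf1 and Hspa4 were −0.69, −0.44, −0.19 and −0.21, and none of the 4 was called without DRF ZT24 replicate 1 or without DRF ZT24 replicate 3, while 1 or 2 were without NRF ZT24 replicate 1, 2 or 3.

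The differences at ZT12 rested on the library labelled DRF ZT12 replicate 4. It held the highest value of its group for all 10 genes, among them 953 TPM of Hspa8, 146 TPM of Hsp90aa1 and 608 TPM of Hspb1, against 526 to 610, 65.3 to 81.2 and 339 to 412 TPM in the other 3 libraries. Without it none of the 10 genes was called at ZT12, where 120 genes (0.866%) were higher. The log2 differences were then 0.46 for Hsph1 (adjusted p = 0.0931), 0.40 for Hsp90aa1 (0.23) and 0.33 for Chordc1 (0.138). The difference in rhythm was still called for 7 genes without this library. With it kept and both doubted libraries left out, 5 of the 10 genes were called at ZT12, against 1.54% of all genes. Hsf1 was the gene added (adjusted p = 0.0465). Leaving out NRF ZT12 replicate 1, 2 or 3 in turn left 2, 1 and 1 of the 10 genes called at ZT12. The immediate early genes, which respond to stress and handling within minutes, summed to 297 TPM in DRF ZT12 replicate 4 and to 170 to 249 TPM in the other 3 libraries of its group, and their part in the result was not tested.

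**Figure D4:**
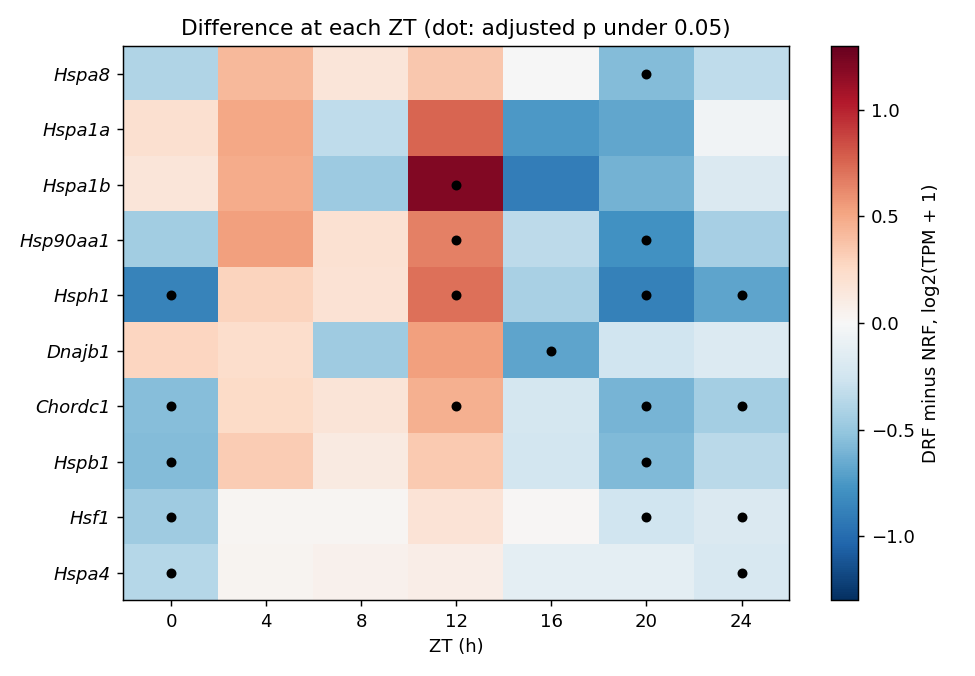
Heat map of the difference of DRF minus NRF on the log2(TPM + 1) scale, with the 10 genes in rows and ZT (h) in columns, red where DRF was higher, blue where it was lower, and a dot where the adjusted p was under 0.05. ZT4 and ZT12 are red and ZT20 and ZT24 blue in all 10 rows, and the called differences span −0.88 to 1.20.

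At ZT4 and ZT8 limma called 0 of the 10 genes, against 0.447% and 0.39% of all genes, and the unadjusted p was under 0.05 for 3 genes at ZT4 and 1 at ZT8, beside 12% and 14.9% of all genes. Both times hold a library that went against its label. Without these 2 libraries Hspa8 (log2 difference 0.63, adjusted p = 0.00383), Hsp90aa1 (0.75, 0.0116) and Hspb1 (0.49, 0.0487) were higher under DRF at ZT4, as were 1.66% of all genes. At ZT8 Chordc1 was higher (0.40, 0.0361), as were 77 of all genes (0.555%), while 423 were lower. Replicate 1 was the library in doubt in each of these groups. DRF ZT4 replicate 4, which lay closer to NRF ZT4 over the clock genes, was kept. At ZT8 under NRF Chordc1 held 18.2, 9.01, 9.22 and 9.05 TPM, and at ZT4 under DRF 10.5, 12.6, 15.3 and 16.7 TPM.

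ZT0 and ZT24 compare the same clock time a day apart. Between them limma called 0 of the 10 genes under either regimen, against 0.469% of all genes under DRF and 0.0577% under NRF, and the unadjusted p was under 0.05 for 3 genes under DRF and 0 under NRF, beside 12.3% and 9.17% of all genes. The 3 were Dnajb1 (−0.61, SE 0.21), Hsf1 (0.16, SE 0.06) and Hspa4 (0.17, SE 0.06). For Hsf1 and Hspa4 the 4 DRF libraries at ZT24 all stood above those at ZT0, though the difference did not pass the adjusted test (adjusted p = 0.224 and 0.222).

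Over all 7 ZTs a lower mean level under DRF was called for Hspa4 alone (59.9 against 63.9 TPM, log2 difference −0.07, SE 0.03, adjusted p = 0.0369). The other 9 had log2 differences of −0.15 to −0.01, also lower but not called. A lower mean level under DRF was called for 24.5% of all genes. This share depends on scaling. Of all genes called, 93.5% were lower as scaled here and 57.6% after median-of-ratios rescaling, and Hspa4 was then not called, nor was it without both doubted libraries. The same rescaling moved the share of lower genes among those called from 73.2% to 53.4% at ZT0, from 83.6% to 55.7% at ZT12, from 90.4% to 52.0% at ZT16 and from 77.0% to 49.4% at ZT20. At ZT16 it took the number of lower genes from 870 to 313, and at ZT24 from 618 to 1130. It shifted libraries by about 0.03 on the log2 scale in opposite directions for the regimens. All 6 genes called at ZT20 and all 5 at ZT0 were called after it, and Dnajb1 at ZT16 was not.

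The related chaperone genes were counted from lists chosen by function. Of 29 tested co-chaperones and further HSP70, HSP90 and HSP40 genes of the cytosol, NRF rhythm was called for 22 and DRF rhythm for 9, 17 differed in rhythm, and 22 had a lower amplitude under DRF. For this list and those that follow, the shares over all genes were 37.3% (NRF rhythm), 32.5% (DRF rhythm), 27.7% (difference) and 52.1% (lower amplitude). Their median amplitude was 0.13 under NRF and 0.09 under DRF. Dnaja1, another HSP40 gene, had amplitudes of 0.48 and 0.23, Dnajb5, also of the HSP40 family, 0.33 and 0.09, and Ahsa2, a co-chaperone of HSP90, 0.33 and 0.17. Bag2, a nucleotide exchange factor, went the other way, from 0.09 to 0.22. Of 6 small heat shock protein genes other than Hspb1, NRF rhythm was called for 2 and DRF rhythm for 4, and 4 differed. Hspb3, a muscle member, had amplitudes of 0.42 and 0.53 and peaks at ZT23.0 and ZT8.37.

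**Figure D5:**
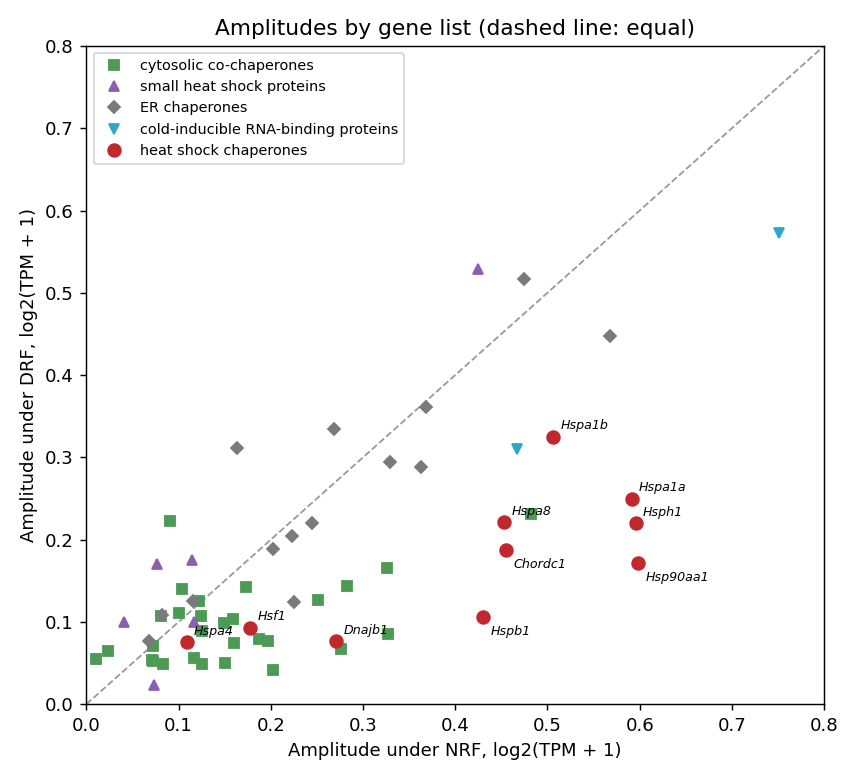
Amplitude under NRF (horizontal) against amplitude under DRF (vertical), both on the log2(TPM + 1) scale, for the 10 heat shock genes (labelled), the cytosolic co-chaperones, the small heat shock proteins, the chaperones of the endoplasmic reticulum (ER) and the cold-inducible RNA-binding proteins, with a dashed line of equality. All 10 heat shock genes and 22 of 29 co-chaperones lie below the line, and 8 of 14 chaperones of the endoplasmic reticulum do.

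Chaperones of other compartments were counted in the same way. Of 14 genes of the endoplasmic reticulum, 13 were rhythmic under NRF, 11 under DRF and 11 under both, and 13 differed in rhythm. Their median amplitude was 0.24 under NRF and 0.25 under DRF. Sdf2l1 had the largest NRF amplitude of the list (0.57, against 0.45 under DRF), and Manf followed (0.47 and 0.52). Hspa5, which encodes BiP, the HSP70 of that compartment, is named after its values were seen, and had amplitudes of 0.33 ± 0.06 and 0.29 ± 0.07 and peaks at ZT23.9 and ZT8.20, beside Hsf1 at ZT23.9 and ZT8.14. Of 7 mitochondrial chaperone genes, Hspe1, the partner of HSP60, was rhythmic under NRF and differed, and no gene was rhythmic under DRF. Of 8 subunit genes of the chaperonin TRiC, NRF rhythm was called for 2 and DRF rhythm for 4, and 2 differed (Cct3 and Cct6a). Of the other heat shock factors, Hsf4 was rhythmic under DRF and Hsf2 under neither, and neither differed.

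Genes that respond in the opposite way to temperature were also counted. Cirbp and Rbm3, RNA-binding proteins induced by mild cold, were rhythmic under both regimens. Cirbp had amplitudes of 0.75 and 0.57 and peaks at ZT8.21 and ZT3.33, and its rhythm differed, while Rbm3 had amplitudes of 0.47 and 0.31, peaks at ZT8.82 and ZT6.29 and no called difference (adjusted p = 0.0796). Of 10 immediate early genes, which rise within minutes of stress or handling, 9 were tested, NRF rhythm was called for 2 and DRF rhythm for 1, and 2 differed (Jun and Btg2). Their summed level ran from 199 to 485 TPM under NRF and from 167 to 360 TPM under DRF.

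Markers of the cells that a heart sample can hold were checked. Cardiomyocyte markers (6 of 6 tested) summed to 21014 to 29635 TPM under NRF and 17648 to 24687 TPM under DRF, and Actc1 was lower and Tnnt2 higher under DRF. Atrial markers (4 of 4) varied widely, from 125 to 4060 TPM under NRF and from 93.3 to 5164 TPM under DRF. Their median sum was 567 TPM under NRF and 1674 TPM under DRF. All 4 had higher mean levels under DRF, by log2 differences of 0.79 to 1.57, and only Bmp10 was called. Erythroid markers (3 of 3) ran from 1287 to 34168 and from 1496 to 57401 TPM, and adipocyte markers (3 of 3) from 11.3 to 165 and from 4.02 to 178 TPM. Endothelial markers (4 of 4) ran from 412 to 713 and from 348 to 604 TPM, and all 4 were called lower under DRF. Over all genes 24.5% were called lower, a share that depends on scaling as given above. Fibroblast markers (3 of 3, 2 lower) ran from 342 to 538 and from 324 to 541 TPM, macrophage markers (3 of 3, 2 lower) from 44.3 to 103 and from 42.7 to 82.8 TPM, and smooth muscle markers (2 of 2) from 17.7 to 43.6 and from 16.9 to 45.5 TPM. No defining marker of these lists was at 0 in every library, and their part in the results was not tested. The 3 skeletal muscle myosin genes had no value in the table.

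The 10 genes did not share one profile. Correlated with the mean profile of all 10 over the 14 group means, Hsp90aa1 (0.96), Hsph1 (0.96), Chordc1 (0.94), Hspb1 (0.92) and Hspa8 (0.90) were close to it, Hspa1a, Hspa1b and Hspa4 lay at 0.66 to 0.69, and Dnajb1 and Hsf1 at 0.50. Chordc1 and Hspb1 were the closest pair (0.98), and Dnajb1 and Hsf1 correlated at −0.20. Outside the 10, among genes averaging 5 TPM or more, those with the profile most like the mean of the 10 were Thap2 (0.95), Srsf10 (0.94), Tmem33 (0.93), Gdpd1 (0.93), Ryk (0.92), Slc25a38 (0.92), Ahsa2 (0.92), P4ha1 (0.92), Stip1 (0.91) and Zfp180 (0.91), as Pearson correlations over 14 group means on the log2 scale. Ahsa2 and Stip1, both HSP90 co-chaperone genes, are also in the list of cytosolic co-chaperones.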

How the data were processed

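RNA-seq values of 56 heart libraries (4 replicates, 2 regimens, 7 ZTs) were analysed. Per the submitters' processing notes, reads were aligned with HISAT2 2.0.5 to mm10 and counted with featureCounts 1.5.0-p3; the annotation and the strand setting are not given in the sources used here. The deposited values, which the authors named TPM, are not linear TPM. Value times exon length fell on steps of a library constant times log2(1 + scaled reads), a score of another kind that compresses abundant genes. Fitting 2 constants for each library turned the values back into whole reads, with union exon lengths of GENCODE M21 (GRCm38). Below 30000 reads, 99.9996% of 1.19186e+06 values lay no more than 0.1 from a whole number. The annotated length fitted 96.4% of the genes, and for 820 genes another length was found. Linear TPM was recomputed from these reads. No molecular identifiers were used, so counting error is a lower bound on the error.

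Tests used limma 3.58.1 in R 4.3.3 on log2(TPM + 1) for 13863 genes averaging 1 TPM or more. Adjusted p-values are Benjamini-Hochberg over all of them. The rhythm test was an F test of a 24 h cosine and sine within a regimen, the difference test an F test of their interaction with regimen, the mean level was a contrast adjusted for ZT, and single times came from 1 model of all 14 groups. Amplitude and peak SEs used the delta method. Recovery used Python 3.11.15 and pandas 2.3.3. The labels gave regimen, ZT and replicate, and replicate numbers were not treated as pairs in the main fits. MetaCycle, which the study used, was not run. Alternatives were the pseudocount, the filter, median-of-ratios scaling, limma voom on the reads, the deposited values themselves, a test of any shape, leaving out ZTs, replicates and libraries, and a replicate block. All 10 genes are named. The 10 genes with the most similar profile are named by correlation, and genes of other lists by the largest NRF amplitude or a change the other way; a few called genes are named beside their counts. The genes and lists were chosen with earlier results of these data known.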

Additional observations from a re-analysis of the deposited data

Results flagged for a closer look

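For each gene and group of 4, a library was marked when its gap to the nearest of the other 3 took nearly all of the range of the group. This marked 14 of the 140 groups of values. Chance marks about 1 in 20 of independent groups, but the genes share libraries and correlate within groups. One odd library can therefore mark several genes, and the size of any excess cannot be judged. All marked values outside DRF ZT12 replicate 4 lay in libraries numbered replicate 1, as did both libraries that went against their labels. No explanation was tested for any of the marked values.

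The library labelled NRF ZT8 replicate 1 stood apart in 4 genes. It held 810 TPM of Hspa8 (433 to 480 in the other 3 libraries), 115 TPM of Hsp90aa1 (47.0 to 53.0), 20.3 TPM of Hsph1 (11.8 to 12.9) and 18.2 TPM of Chordc1 (9.01 to 9.22). This is one of the libraries that went against its label, and the other, labelled DRF ZT4 replicate 1, was low in Dnajb1 at 13.5 TPM (19.6 to 19.9).

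NRF ZT20 replicate 1 was high in 3 genes, with 4.69 TPM of Hspa1a (2.15 to 2.43), 8.45 TPM of Hspa1b (2.83 to 3.51) and 27.5 TPM of Dnajb1 (16.6 to 17.1). DRF ZT12 replicate 4 was high in Hspa1b at 25.8 TPM (4.43 to 6.90) and in Hsph1 at 32.9 TPM (15.5 to 16.5). The rest were Hsp90aa1 in NRF ZT0 replicate 1 at 114 TPM (75.9 to 80.1), Hspb1 in DRF ZT0 replicate 1 at 240.02 TPM (360.3 to 374) and in DRF ZT8 replicate 1 at 443 TPM (392 to 398), and Hspa4 in NRF ZT16 replicate 1 at 62.7 TPM (65.1 to 65.6).

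The rhythm differed between DRF and NRF by the interaction test for 7 genes, with adjusted p-values of 1.23e-06 for Hsph1, 6.45e-06 for Hsf1, 1.73e-05 for Chordc1, 0.000283 for Hsp90aa1, 0.000289 for Hspb1, 0.000685 for Hspa4 and 0.00105 for Hspa8.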

How the results depend on the processing

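The 7 differences in rhythm were called in all 75 alternatives, and the count of such genes ran from 7 to 10 (7 under every replicate or library left out). The median amplitude difference, −0.25, ran from −0.34 to −0.16. The 10 NRF rhythms numbered 7 to 10 over 47 alternatives, 8 to 10 with a replicate or library left out. No result reversed. For DRF rhythm, against 3 genes, 5 were called by a test of any shape, 1 with the deposited values, 1 without ZT0, ZT16 or ZT24, 5 without ZT4, and 0 to 4 with a replicate or library left out. For the mean level, against 1 gene, 0 were called with the deposited values, limma voom, median-of-ratios scaling, no filter, without ZT0, ZT8 or ZT16 and without both doubted libraries (an alternative added after seeing the data), 3 without ZT4 or ZT12, and 0 to 4 with a replicate or library left out. At ZT16, 0 genes against 1 were called with the deposited values, median-of-ratios scaling and no filter, and 0 to 1 with a library left out. At ZT24, 2 against 4 were called with the deposited values and 0 to 4 with a library left out, and at ZT12 0 to 4 against 4. At ZT4, 0 to 2 against 0 were called with a library left out and 3 without both doubted libraries, and at ZT8, 1 without both. Between ZT24 and ZT0 under DRF, 1 against 0 was called with median-of-ratios scaling. The causes of these changes were not tested.

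Same-numbered libraries deviated together only weakly (mean correlation 0.0171 over 364 pairs, against −0.0057 over 1092 other pairs). Of 56 libraries, 21 were closest to their own number, which is more than an even split over the 4 numbers would give. What the numbers stand for is not given in the labels, and the main fits did not use them. With a replicate block, NRF rhythm was called for 10 genes, DRF rhythm for 4 and a difference for 7. Hspa1a and Hspa1b had the fewest reads of the 10, with 43 and 69 in their lowest libraries.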
